A study of Homo sapiens with 42 samples.

Results

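The genes described are those of the urea cycle and its nearest partners: CPS1, NAGS, OTC, ASS1, ASL, ARG2, the ornithine carrier SLC25A15 and the glutamine synthetase GLUL. They were 8 of 18404 genes measured, and all 8 were found. The group was proposed with earlier results of these data in view, so the members were selected on measured values. Their 0 h levels are therefore a description without a test. The p-values of their time courses, changes and line differences take no account of that selection. The genes lie on 8 chromosomes (RefSeq, GRCh38.p14): CPS1 at chr2:210477685-210679107, NAGS at chr17:44004622-44009068, OTC at chrX:38327684-38422928, ASS1 at chr9:130444707-130501274, ASL at chr7:66075819-66093576, ARG2 at chr14:67619920-67651708, SLC25A15 at chr13:40789611-40812460 and GLUL at chr1:182378098-182391790. Within a gene, the measured entry was chosen by the highest mean level over all 42 arrays. That choice arose for GLUL alone, whose kept entry had a mean of 8.28 against 7.31 for the entry left out; each of the other genes had 1 entry.

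The arrays, of a one-colour Affymetrix type that reads whole transcripts, hold RNA of 2 established human lung cancer cell lines. H460 derives from a large-cell carcinoma and is named radiosensitive by the study. H1299 is a non-small cell lung cancer line and is named radioresistant. Both grew as monolayers in RPMI medium with serum and L-glutamine and received 2 Gy of gamma radiation while growing exponentially. For each line 6 arrays are labelled as taken before irradiation (0 h). A further 3 stand for each later time (2, 4, 8, 12 and 24 h), so that a line has 21 arrays and the study 12 groups. Each radiation phenotype is thus represented by 1 line. All arrays after 0 h were irradiated, so hours after irradiation and hours in culture cannot be told apart. Unirradiated cells were, by the protocol, also cultured for those times, and whether any array labelled 0 h holds them is unknown. Arrays within a group are named biological replicates, with nothing on whether they are separate cultures, so the p-values measure the spread between these arrays. Levels are log2 intensities, on which a difference of 1 is a doubling. In bulk RNA, fewer cells with a transcript and less of it per cell cannot be told apart.

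The urea cycle disposes of ammonia in the liver. In mitochondria, CPS1 joins ammonia and bicarbonate to carbamoyl phosphate, and it works only when bound to N-acetylglutamate, the product of NAGS. OTC transfers the carbamoyl group to ornithine, and SLC25A15 exchanges the citrulline so formed for ornithine across the inner membrane. In the cytosol ASS1 joins citrulline to aspartate, and ASL splits the product into arginine and fumarate. Arginase then releases urea and ornithine: ARG1 is the liver enzyme and ARG2 the mitochondrial form found in other tissues. Most tissues other than the liver and intestine lack the complete set, and ASS1 with ASL there serves the making of arginine. GLUL fixes ammonia in glutamine. CPS1 is also known from lung cancers that have lost the kinase STK11 (LKB1), where its carbamoyl phosphate can feed pyrimidine synthesis.

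The 250 bases before the start site of 4 of the genes are printed so that the CpG-poor promoters of CPS1 and OTC can be read beside the CpG-rich ones of ASS1 and ARG2, which differed between the lines in opposite directions. Capitals mark exact matches, on either strand, to the TATA box (TATAAA), the CCAAT box, the GC box (GGGCGG), the E-box (CACGTG), the cAMP response element (TGACGTCA) and the core of a C/EBP and ATF composite site (TGATGNAA).
CPS1 promoter, chr2:210593105-210593354 (+): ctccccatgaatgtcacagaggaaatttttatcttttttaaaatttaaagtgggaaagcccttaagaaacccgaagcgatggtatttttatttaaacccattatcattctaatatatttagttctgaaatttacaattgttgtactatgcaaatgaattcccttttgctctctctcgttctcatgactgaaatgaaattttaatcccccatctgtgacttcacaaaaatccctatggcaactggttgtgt
OTC promoter, chrX:38352354-38352603 (+): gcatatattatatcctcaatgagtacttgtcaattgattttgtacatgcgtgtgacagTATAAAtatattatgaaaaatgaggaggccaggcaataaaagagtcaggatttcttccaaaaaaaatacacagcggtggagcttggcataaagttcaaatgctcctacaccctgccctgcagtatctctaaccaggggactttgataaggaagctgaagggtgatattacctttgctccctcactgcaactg
ASS1 promoter, chr9:130444457-130444706 (+): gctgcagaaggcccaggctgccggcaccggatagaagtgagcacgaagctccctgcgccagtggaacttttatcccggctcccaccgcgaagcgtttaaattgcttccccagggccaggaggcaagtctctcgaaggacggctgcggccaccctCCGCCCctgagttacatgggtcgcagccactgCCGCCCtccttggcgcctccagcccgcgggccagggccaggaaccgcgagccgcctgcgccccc
ARG2 promoter, chr14:67619670-67619919 (+): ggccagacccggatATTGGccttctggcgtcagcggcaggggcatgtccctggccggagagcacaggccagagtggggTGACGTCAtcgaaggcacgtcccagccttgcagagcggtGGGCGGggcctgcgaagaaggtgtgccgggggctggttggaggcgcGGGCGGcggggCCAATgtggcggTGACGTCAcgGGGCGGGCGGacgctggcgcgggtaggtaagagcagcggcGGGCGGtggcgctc

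All 8 genes were found among 35116 promoter windows of 300 bases from RefSeq (GRCh38.p14), which run from 250 bases before to 50 after a start. The CPS1 window held 36.7% G and C and 3 CpG, and the OTC window 41.7% and 3. The median over all windows was 58.7% and 14. The ASS1 window held 71.7% and 29 CpG, the ARG2 window 71% and 31, and the other members had 64.3% (NAGS), 74% (ASL), 80% (SLC25A15) and 72.7% (GLUL). The CPS1 window contained none of the motifs searched, which also took in GTTAAT (the HNF1 half-site) and the p53 half-site, neither of them in capitals. Its start lies 115670 bases inside the annotated CPS1 gene, whose outermost start belongs to another transcript, and that of OTC lies 24920 bases inside its gene. The ARG2 window held TGACGTCA at 2 positions, -172 and -64 from the start, a motif in 1.85% of all windows. It also held 5 GC boxes, of which those at -54 and -50 overlap, 2 CCAAT motifs and 1 p53 half-site. The ASS1 window held 2 GC boxes and 1 p53 half-site, the latter present in 6.63% of all windows. The GC box, found in 45% of all windows, was present in 6 of the 8 members, and CCAAT, found in 34.6%, in 3. TATAAA occurred in OTC alone of the members, at -192, and in 11.5% of all windows. No member window held CACGTG (7.26% of all), TGATGNAA (3.62%) or GTTAAT (6.88%). Matches in the last 50 bases of a window lie outside the stretch printed. A match describes the letters and shows no binding.

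Before irradiation the levels of some genes of the cycle differed between the lines. CPS1, ASS1 and SLC25A15 were higher in H460 and ARG2 and ASL were higher in H1299, while NAGS, OTC and GLUL had overlapping levels. The 0 h arrays of the lines did not overlap for 5 of the 8 genes, against 35.3% of all genes. Over the 24 h after 2 Gy, CPS1 and ASS1 rose in H460. ARG2 and SLC25A15 fell in H1299 and overlapped their 0 h levels again at 24 h. SLC25A15 also fell in H460 at 12 h, and its courses did not differ between the lines by the test (limma, adjusted p = 0.947). The time courses of CPS1, ASS1 and ARG2 differed between the lines. The width of an array is the interquartile range of all genes on it. With the width in the model, the difference of courses was still called for ARG2 and not for CPS1 or ASS1. The H460 changes of ASS1 were then 0.099 at 12 h and 0.25 at 24 h, neither of them called.

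**Figure D1:**
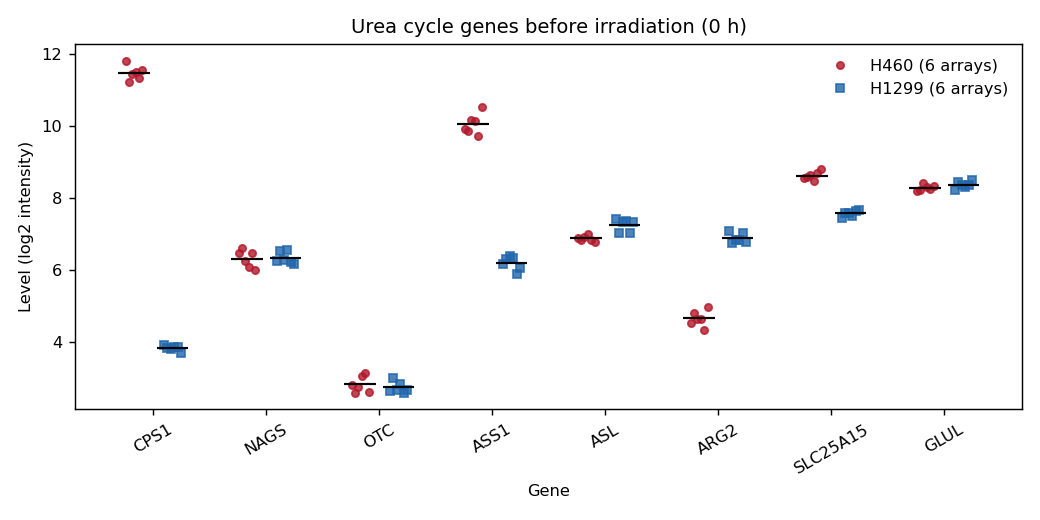
Level of each gene (log2 intensity, vertical axis) on the 6 arrays of H460 (circles) and the 6 arrays of H1299 (squares) before irradiation; the bar is the group mean. CPS1 lies at 11.49 in H460 and 3.84 in H1299, ARG2 lies the other way round, and OTC is at the bottom of the axis in both lines.

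CPS1 was the member with the largest contrast between the lines. In H460 at 0 h it ran from 11.23 to 11.82 with a median of 11.49 (mean 11.49 ± 0.20 SD, n = 6). In H1299 it ran from 3.70 to 3.93 with a median of 3.86 (mean 3.84 ± 0.078 SD, n = 6). The means differed by 7.65 ± 0.091 (SE), a 201-fold difference in intensity, with a 95% interval of 7.46 to 7.84 on the log2 scale. The deposited values carry no detection calls, so whether the level in H1299 is above background is unknown and the fold depends on it.

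After 2 Gy, CPS1 in H460 first dipped and then rose past its starting level. The 2 h arrays read 11.20, 11.34 and 10.70, and the 4 h arrays 11.74, 11.21 and 11.37. The 8 h arrays all read 11.88, above all 0 h arrays. At 12 h the arrays read 12.40, 12.34 and 12.35 and at 24 h 12.39, 12.45 and 12.37, so both late groups lay above every earlier array. The order of the H460 means was 24 h (12.41), 12 h (12.36), 8 h (11.88), 0 h (11.49), 4 h (11.44) and 2 h (11.08). Neighbours in that order overlapped except 12 h against 8 h and 8 h against 0 h.

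The quadratic time course of CPS1 in H460 was called (limma, adjusted p = 3.59e-05). The change from 0 h was 0.88 ± 0.12 at 12 h (1.84-fold, adjusted p = 1.63e-05) and 0.92 ± 0.12 at 24 h (1.89-fold, adjusted p = 4.28e-06). All 3 arrays of each time lay above all 6 at 0 h. The change of -0.40 at 2 h (adjusted p = 0.0117) was lost without 1 array: without 2 h replicate 3 the change was -0.21 (adjusted p = 0.178). The rise of 0.39 at 8 h (adjusted p = 0.0303) was no longer called without any 1 of 5 arrays (0 h replicates 2 and 5 and each 8 h array), at 0.34 to 0.39 with adjusted p from 0.0657 to 0.101. Under the other settings the 2 h change was called in 9 of 12 and the 8 h change in 8 of 13. At 4 h the change was -0.045 ± 0.12 (adjusted p = 0.89).

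In H1299, CPS1 stayed within the range of 3.56 to 4.32 over all 21 arrays. Its changes ran from -0.12 ± 0.13 at 2 h to 0.18 ± 0.13 at 4 h, none was called, and the time course had an adjusted p of 0.404. The difference of the time courses between the lines was called for CPS1 (adjusted p = 0.00211). By time point, the H460 change exceeded the H1299 change by 0.77 ± 0.18 at 12 h (adjusted p = 0.0051) and by 0.77 ± 0.18 at 24 h (adjusted p = 0.00349). The 12 h difference was lost under quantile normalization (0.49, adjusted p = 0.0937). With the array width in the model, taken up in the next paragraph, neither was called (0.65 at 12 h, adjusted p = 0.149; 0.63 at 24 h, adjusted p = 0.0738).

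**Figure D2:**
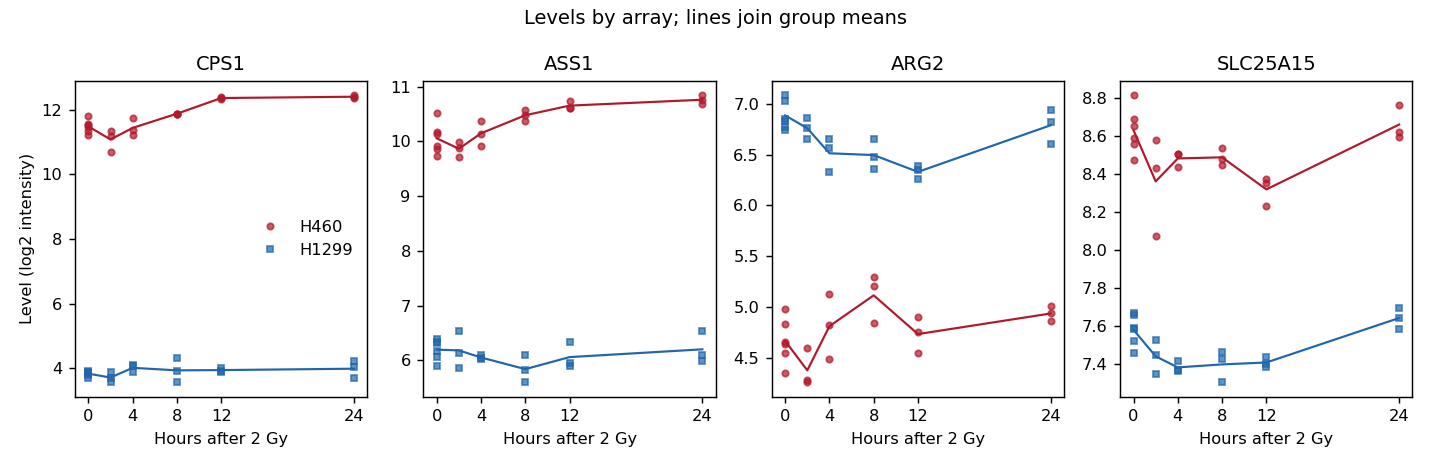
Levels (log2 intensity, vertical axes with separate ranges) of CPS1, ASS1, ARG2 and SLC25A15 against hours after 2 Gy in H460 (circles) and H1299 (squares); points are arrays and lines join group means. CPS1 and ASS1 climb in H460 to 12.41 and 10.76 at 24 h, while ARG2 in H1299 drops to 6.33 at 12 h and is back at 6.79 at 24 h.

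The width of the arrays changed with time in H460 and moved with the CPS1 level. The interquartile range of all genes on an array averaged 3.34 in the 0 h group of H460, fell to 2.84 at 2 h, read 3.345 at 4 h and lay between 3.64 and 3.67 from 8 h on. The group means of H1299 lay between 3.53 and 3.82. Over the 21 arrays of H460 it correlated with the level of CPS1 (r = 0.82), ASS1 (r = 0.88) and ARG2 (r = 0.67), all of which share the time axis with it. The corresponding values in H1299 were 0.33, -0.38 and -0.35. With the width as a term in the model, the CPS1 change was 0.71 at 12 h (adjusted p = 0.0217) and 0.77 at 24 h (adjusted p = 0.00388), so both rises were still called. Whether width has a part in the rest of the change was not tested. Over the 13 settings tried, the 24 h change ran from 0.74 to 0.94 and the 12 h change from 0.71 to 0.92, with adjusted p up to 0.0217. The early changes were not called with the width in the model (2 h: -0.15, adjusted p = 0.894; 8 h: 0.24, adjusted p = 0.727). The difference of time courses between the lines then had an adjusted p of 0.0905, against a range of 1.19e-05 to 0.0905 over the 14 settings tried for it. At 2 h the 3 narrow arrays are the whole group, so array width and time cannot be told apart there. From 8 h on the H460 arrays had widths of 3.595 to 3.727. Of the 0 h arrays only replicate 6 (3.628) was as wide, and the others reached at most 3.386. Width and time are thus largely bound together at these later times too.

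**Figure D3:**
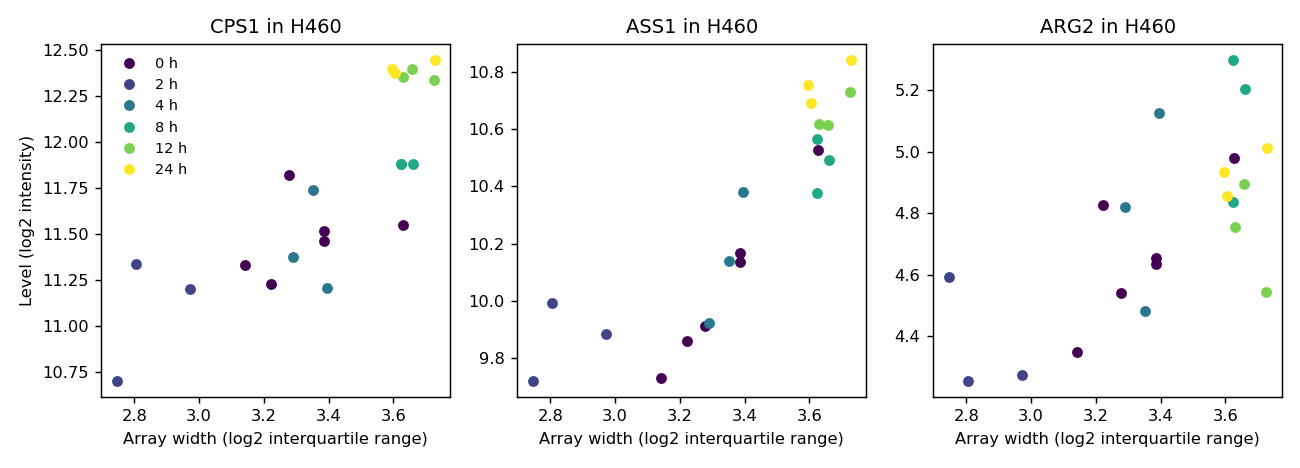
Level (log2 intensity, vertical axes with separate ranges) of CPS1, ASS1 and ARG2 on the 21 arrays of H460 against the width of each array (interquartile range of all genes, log2), coloured by hours after 2 Gy. At widths near 3.6 the 12 h and 24 h arrays lie above the 8 h arrays for CPS1 and also for ASS1. The only 0 h array of that width (replicate 6, 3.628) lies below the 8 h arrays for CPS1 (11.55 against 11.88). For ASS1 it lies among them (10.53 against 10.38 to 10.57).

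NAGS, whose product switches CPS1 on, had overlapping levels in the lines. At 0 h it ran from 6.02 to 6.62 in H460 and from 6.16 to 6.57 in H1299, a difference of -0.015 ± 0.12 with a 95% interval of -0.26 to 0.23. Neither time course was called (adjusted p = 0.183 in H460 and 0.239 in H1299). The H460 arrays at 4 h (5.97, 5.99 and 5.86) lay below all 0 h arrays, with a change of -0.38 ± 0.13 that was not called (adjusted p = 0.115). The change at 2 h was higher in H460 than in H1299 by 0.42 ± 0.16 (adjusted p = 0.0475). This call was lost in 24 of 42 fits that left out 1 array, each 2 h array of H460 and 2 h replicates 1 and 2 of H1299 among them (0.36 to 0.45, adjusted p from 0.0501 to 0.118). With the array width in the model the difference was -0.032, and it was also lost with 0 h arrays 1 to 3 alone and with the replicate number as a block (0.31 in both, adjusted p = 0.195 and 0.199).

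OTC gave low levels in both lines. It ran from 2.60 to 3.15 in H460 at 0 h and had a median of 2.68 in H1299, a difference of 0.09 ± 0.11 with an interval of -0.13 to 0.31. No array of either line was above 3.15, and all neighbouring groups overlapped. Its largest change was -0.17 ± 0.11 at 4 h in H460, and neither course was called (adjusted p = 0.588 and 0.748). OTC is the enzyme that would take the carbamoyl phosphate of CPS1 into the cycle, and without detection calls it cannot be said whether it was expressed.

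SLC25A15, the carrier that brings ornithine to OTC, was higher in H460. It ran from 8.48 to 8.81 with a median of 8.62 in H460 at 0 h, and from 7.46 to 7.67 with a median of 7.58 in H1299. The means differed by 1.05 ± 0.075, or 2.07-fold. In H1299 the arrays read 7.36, 7.36 and 7.41 at 4 h, 7.30, 7.42 and 7.46 at 8 h and 7.44, 7.38 and 7.40 at 12 h, and were back at 7.70, 7.64 and 7.58 at 24 h. The H1299 time course was called (adjusted p = 0.00636). The changes were -0.20 at 4 h (adjusted p = 0.0408) and -0.18 at 8 h (adjusted p = 0.0449). The 8 h arrays overlapped those at 0 h. The 4 h call was lost without any of 7 arrays of H1299 (0 h replicates 3, 5 and 6, each 4 h array and 8 h replicate 2), at -0.21 to -0.18 with adjusted p up to 0.142. The 8 h call was lost without any of 14 (the same 7, 2 h replicate 2, 8 h replicates 1 and 3, 12 h replicates 1 and 3, and 24 h replicates 1 and 2), at -0.22 to -0.13 with adjusted p up to 0.216. Of 13 other settings, 9 kept the 4 h call and 8 the 8 h call.

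In H460 the 12 h arrays of SLC25A15 (8.23, 8.37 and 8.35) lay below all 0 h arrays, a change of -0.31 ± 0.10 (adjusted p = 0.0193). Leaving out 12 h replicate 1 or 3 gave adjusted p values of 0.0964 and 0.0506, and 0 h arrays 1 to 3 alone and the replicate block gave 0.0628 and 0.0714. The change of -0.27 at 2 h (adjusted p = 0.0336) was -0.13 without 2 h replicate 3 (adjusted p = 0.331), was also lost without 0 h replicate 3 or 6, and was called in 6 of 12 other settings; it was 0.038 with the array width in the model and -0.031 under quantile normalization. The quadratic course in H460 was not called (adjusted p = 0.0607), but was called without 2 h replicate 3 (adjusted p = 0.0121) and with the array width in the model (adjusted p = 0.00764). The courses of the lines did not differ by the test (adjusted p = 0.947), with differences of change between -0.14 and 0.049.

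ASS1, which makes argininosuccinate and limits arginine synthesis outside the liver, was also higher in H460 and rose there. At 0 h it ran from 9.73 to 10.53 with a median of 10.03 in H460, and from 5.90 to 6.39 with a median of 6.25 in H1299. The means were 10.06 and 6.20, a difference of 3.86 ± 0.12 or 14.5-fold. The lines did not overlap at any time.

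In H460 the ASS1 arrays read 9.88, 9.99 and 9.72 at 2 h and 10.14, 10.38 and 9.92 at 4 h, within or near the 0 h range. They read 10.49, 10.57 and 10.38 at 8 h, 10.62, 10.73 and 10.62 at 12 h, and 10.75, 10.84 and 10.69 at 24 h. The 12 h and 24 h arrays lay above all 6 at 0 h, and the 8 h arrays overlapped them. The time course was called (adjusted p = 9.28e-05), with changes of 0.60 ± 0.13 at 12 h (1.51-fold, adjusted p = 0.00113) and of 0.70 ± 0.13 at 24 h (1.63-fold, adjusted p = 0.000161). The 8 h change of 0.42 (adjusted p = 0.0238) was lost without 0 h replicate 5, 8 h replicate 1 or 8 h replicate 2 (adjusted p from 0.0573 to 0.112), with 0 h arrays 4 to 6 alone (0.35, adjusted p = 0.152) and under quantile normalization (0.25, adjusted p = 0.109).

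Array width moved with ASS1, at the r of 0.88 given above. With it in the model the ASS1 changes were -0.025 at 8 h (adjusted p = 0.977), 0.099 at 12 h (adjusted p = 0.742) and 0.25 at 24 h (adjusted p = 0.213), and none was called. The quadratic course was still called (adjusted p = 0.0122). Over the 13 settings tried, the 24 h change ran from 0.25 to 0.78 with adjusted p from 6.71e-07 to 0.213.

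In H1299 the lowest ASS1 mean was that at 8 h (6.09, 5.60 and 5.83), a change of -0.36 ± 0.15 that was not called (adjusted p = 0.075), and at 24 h the change was 0.0057 ± 0.15. The time course was not called (adjusted p = 0.171). The courses of the lines differed (adjusted p = 0.000678). The H460 change exceeded the H1299 change by 0.78 ± 0.20 at 8 h, 0.73 ± 0.20 at 12 h and 0.70 ± 0.20 at 24 h (adjusted p = 0.00836, 0.0143 and 0.0147). These differences were lost without 8 h replicate 2 of H1299 (0.66, adjusted p = 0.0505), without 12 h replicate 2 or 3 of H1299 (adjusted p = 0.0603 and 0.051), and without 24 h replicate 2 of H460 or 24 h replicate 1 of H1299 (adjusted p = 0.0506 and 0.0752). With the array width in the model the differences were 0.27 at 8 h, 0.17 at 12 h and 0.22 at 24 h, none of them called (adjusted p = 0.611, 0.785 and 0.638), and the difference of courses had an adjusted p of 0.19. All 3 were also lost with 0 h arrays 4 to 6 alone (0.61, 0.56 and 0.53, adjusted p = 0.128, 0.175 and 0.164), and that at 12 h under quantile normalization (0.54, adjusted p = 0.0563).

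ASL, the next enzyme, did not share this pattern. It ran from 6.80 to 7.01 in H460 and from 7.03 to 7.44 in H1299 at 0 h, a difference of -0.37 ± 0.089, 1.30-fold higher in H1299. Its time course was not called in H460 (adjusted p = 0.102) or H1299 (adjusted p = 0.121), and the difference of courses had an adjusted p of 0.966. Each line's course was called in 3 of 15 other settings. Changes ran from -0.16 to 0.13 in H460 and from -0.23 to 0.12 in H1299. The 95% interval of the 24 h change in H460 was -0.10 to 0.37.

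ARG2, the mitochondrial arginase, was the member highest in H1299 relative to H460. At 0 h it ran from 6.75 to 7.08 with a median of 6.84 in H1299, and from 4.35 to 4.98 with a median of 4.64 in H460. The means were 6.89 and 4.66, a difference of -2.22 ± 0.11, or 4.67-fold higher in H1299.

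In H1299 ARG2 was lowest at 12 h and overlapped its starting level again at 24 h. The arrays read 6.66, 6.76 and 6.86 at 2 h, 6.56, 6.65 and 6.32 at 4 h and 6.47, 6.36 and 6.65 at 8 h. At 12 h they read 6.35, 6.38 and 6.26, and at 24 h 6.61, 6.94 and 6.82. All arrays at 4, 8 and 12 h lay below all 6 at 0 h, and those at 2 and 24 h overlapped them. The time course was called (adjusted p = 6.22e-05). The level fell by 0.37 at 4 h (adjusted p = 0.00876), by 0.39 at 8 h (adjusted p = 0.00454) and by 0.56 at 12 h (SE 0.098, 1.47-fold lower, adjusted p = 0.000118). Without 4 h replicate 3 the 4 h change was -0.28 (adjusted p = 0.11), and with all 42 arrays in 1 fit its adjusted p was 0.0591. The 24 h change was -0.097 ± 0.098 (adjusted p = 0.633). With the array width in the model the 12 h fall was -0.70 (adjusted p = 3.84e-05).

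In H460 the highest ARG2 mean was that at 8 h. Its arrays read 4.27, 4.26 and 4.59 at 2 h, 4.48, 5.13 and 4.82 at 4 h and 5.20, 4.84 and 5.30 at 8 h. They then read 4.90, 4.54 and 4.76 at 12 h and 4.94, 5.01 and 4.86 at 24 h, so the groups overlapped the 0 h arrays at each time. The 8 h change was 0.45 ± 0.15 (adjusted p = 0.0397). It was lost without any of 6 arrays (0 h replicates 1, 3, 4 and 5, and 8 h replicates 1 and 3; 0.36 to 0.45, adjusted p from 0.0553 to 0.175), was called in 9 of 13 other settings and was 0.26 with the array width in the model (adjusted p = 0.77). The quadratic course was not called (adjusted p = 0.162).

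The difference between the lines was called for the ARG2 course (adjusted p = 0.00356; with the array width in the model 0.024). The H460 change exceeded the H1299 change by 0.84 ± 0.18 at 8 h (adjusted p = 0.00223) and by 0.62 ± 0.18 at 12 h (adjusted p = 0.0237). At 4 h the difference was 0.52 ± 0.18 and was not called (adjusted p = 0.0668), but it was called in 6 of 12 other settings. The 8 h difference was called in each of the 12 other settings (0.79 to 1.02) and in all 42 fits with 1 array left out. The 12 h difference was lost without 12 h replicate 1 or 3 of H460 or 12 h replicate 3 of H1299 (adjusted p = 0.0931, 0.055 and 0.0703). It was called in 8 of the 12 other settings, and was lost with the array width in the model (0.56, adjusted p = 0.2), with 0 h arrays 1 to 3 or 4 to 6 alone (adjusted p = 0.0625 and 0.0898) and with the replicate block (adjusted p = 0.0854).

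GLUL, which makes glutamine from glutamate and ammonia, had like levels in both lines. It ran from 8.21 to 8.43 in H460 and from 8.22 to 8.50 in H1299 at 0 h, a difference of -0.073 ± 0.072 with an interval of -0.22 to 0.078. In H460 it was lowest at 8 h (7.97, 8.17 and 8.15), below all 0 h arrays, and highest at 24 h (8.43, 8.55 and 8.39). These changes were -0.20 ± 0.09 and 0.16 ± 0.09, and neither was called alone (adjusted p = 0.116 and 0.192). The quadratic course was called at an adjusted p of 0.0471, and was lost in 14 of 21 fits with 1 array left out (0 h replicates 2 to 5, 2 h replicate 2, 4 h replicates 1 and 2, 12 h replicate 2 and each array at 8 and 24 h; adjusted p from 0.0504 to 0.155) and in all but 7 of 15 other settings. In H1299 the 4 h arrays (8.17, 8.06 and 8.17) lay below all at 0 h, a change of -0.24 (adjusted p = 0.0227). That call was lost without any 1 of the 3 arrays at 4 h (adjusted p = 0.0586, 0.131 and 0.0532). The course in H1299 was not called (adjusted p = 0.26).

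**Figure D4:**
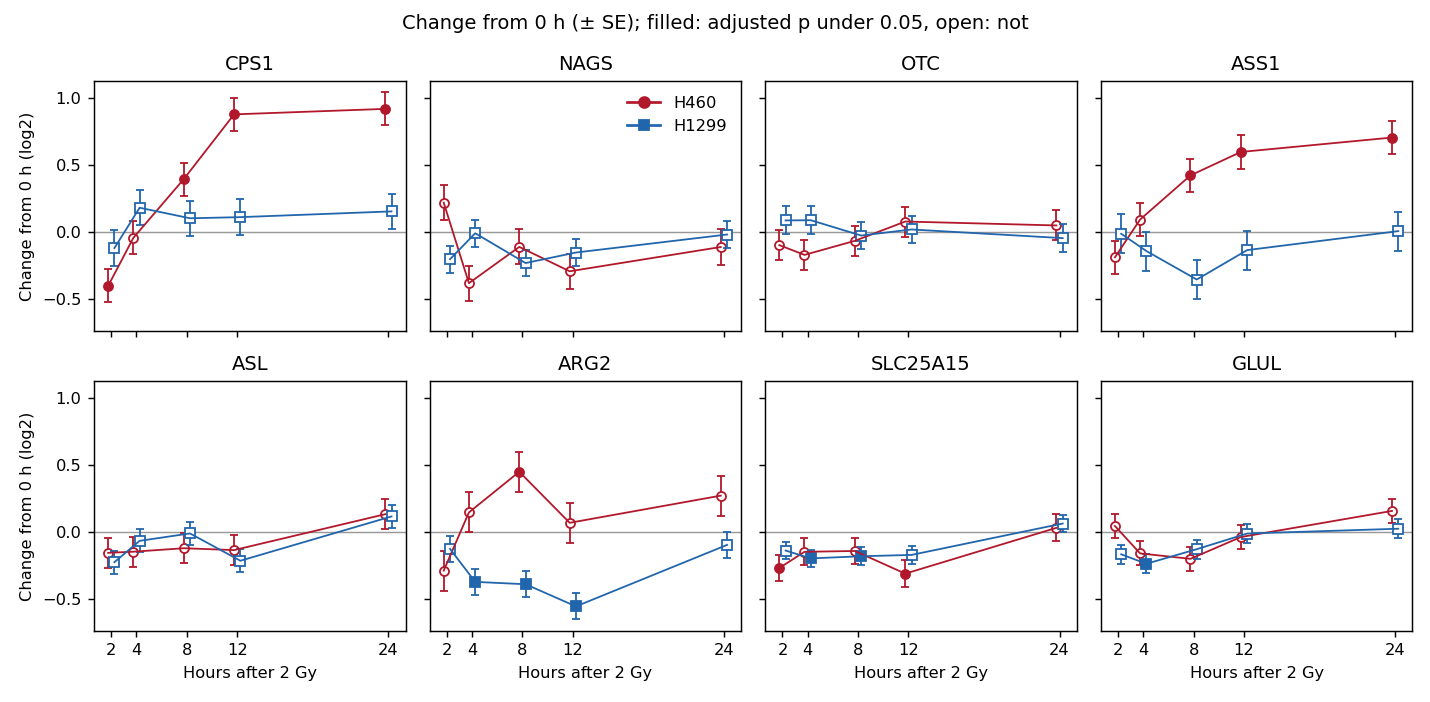
Change from 0 h (log2, vertical axis; bars are the model's SE) of the 8 genes against hours after 2 Gy in H460 (circles) and H1299 (squares). Filled symbols have an adjusted p under 0.05 over all genes and open ones do not; CPS1 and ASS1 reach 0.92 and 0.70 in H460 at 24 h, and ARG2 reaches -0.56 in H1299 at 12 h.

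The 12 groups of both lines were put in order of their mean level. All 11 neighbouring pairs overlapped for NAGS, OTC and GLUL, 10 of 11 did for ASL and SLC25A15, 9 for ASS1 and ARG2 and 8 for CPS1. Such pairs were not counted over all genes, so whether any of these numbers is unusual is unknown. The number of members called was read against all genes tested. A course was counted as a rise or fall by its largest change. In H460 2 of 8 courses were called as rises (20.5% of all genes) and 1 as a fall (21.4%). In H1299 0 were called as rises (19.9%) and 2 as falls (16.6%), by limma at an adjusted p under 0.05, and 0 rises had an unadjusted p under 0.05. The difference of courses was called for 3 of 8 (16.7%). In H460 the members called at 2, 4, 8, 12 and 24 h were 2, 0, 3, 3 and 2, and the percentages of all genes called were 40.4%, 2.92%, 16.9%, 33.5% and 28.7%. In H1299 the members called were 0, 3, 2, 1 and 0, with 13.8%, 15.9%, 24.6%, 29.7% and 11.7% of all genes. Where limma called 0 members, 1 had an unadjusted p under 0.05 at 4 h in H460, 3 at 2 h in H1299 and 0 at 24 h in H1299. The median change of the members at 24 h was 0.14 in H460 and 0.015 in H1299, against -0.052 and 0.002 over all genes, whose 5th to 95th percentiles ran from -0.48 to 0.65 and from -0.25 to 0.36.

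The genes whose group means were most like those of CPS1 over all 12 groups were EPB41L3 (r = 0.9995), FN1, CREG1, PART1 and LAMA1 (r = 0.9992). These values are set almost wholly by the difference between the lines: EPB41L3 had a mean of 10.38 in H460 and 4.23 in H1299 at 0 h. Over the 6 H460 groups alone the most alike were PC (r = 0.998), the mitochondrial pyruvate carboxylase, then GABRE, NCOA7, DCTN1 and CPED1. PC rose from 6.99 at 0 h to 7.67 at 24 h. Among the members, ASS1 had an r with CPS1 of 0.998 over 12 groups and 0.985 over the 6 of H460. ARG2 had -0.96 over 12 groups but 0.61 within H460, and SLC25A15 0.97 and 0.16. These are descriptions over 12 or 6 means that share arrays, time and array width.

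The pathways around the cycle were described with 7 gene lists of 87 genes, of which 77 were measured. In the H460 time course 20 of the 77 were called as rises (20.5% of all genes) and 11 as falls (21.4%), and in H1299 22 (19.9%) and 17 (16.6%). The difference of courses was called for 22 (16.7%). At 0 h 32 were higher in H460 (26% of all genes) and 19 higher in H1299 (29.1%). With the array width in the model 18 of 77 were called in H460 (15.8% of all genes), 14 of them among the 31 called without it, and 32 in H1299 (22.9%). Of the 90 changes at single times called in H460, 73 were not called with the width in the model and 35 not under quantile normalization; of the 115 in H1299, 20 and 10 were not. The 10 listed genes without a row of their own were not analysed here.

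Of 12 urea cycle partners, 4 were called as rises (20.5% of all genes) and 1 as a fall (21.4%) in H460, and 1 (19.9%) and 1 (16.6%) in H1299. The enzymes that return aspartate and malate rose in H460 at 24 h: GOT1, the cytosolic aspartate aminotransferase, by 0.44 ± 0.12 (adjusted p = 0.00708), and the malate dehydrogenases MDH1 by 0.58 ± 0.13 (adjusted p = 0.0019) and MDH2 by 0.28 ± 0.08 (adjusted p = 0.00979). GOT2, the mitochondrial form, had a called course (adjusted p = 0.0125) and a 24 h change of 0.20 ± 0.079 (adjusted p = 0.0597). None of these courses was called in H460 with the array width in the model, where 0 of the 12 were, and the 24 h changes of GOT1, MDH1 and MDH2 were then 0.23, 0.29 and 0.095 (adjusted p = 0.446, 0.334 and 0.638). Under quantile normalization the courses of GOT2, MDH1 and MDH2 were lost, and the MDH2 change was 0.11 (adjusted p = 0.193). In H1299 the MDH1 change was -0.28 at 4 h (adjusted p = 0.00811) and 0.23 at 24 h (adjusted p = 0.0402). The 24 h call was lost in 5 of 13 other settings. The 24 h changes of GOT1, GOT2 and MDH2 in H1299 were -0.061, -0.11 and -0.058, none of them called. At 0 h the aspartate carrier SLC25A13 was lower in H460 (-0.64, 9.33 against 9.97, adjusted p = 4.89e-05), and so was SIRT5, a deacylase of CPS1 (-0.86, 6.47 against 7.34, adjusted p = 4.9e-06). SLC25A13 was called in both courses, in H460 with its largest change a fall at 2 h, and in neither with the array width in the model (adjusted p = 0.999 and 0.776). ARG1, the liver arginase, was at 2.71 in H460 and 2.73 in H1299, with no called course (adjusted p = 0.328 and 0.771).

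Carbamoyl phosphate is also made by CAD for pyrimidines. CAD lay at 8.83 in H460 and 8.94 in H1299 at 0 h (adjusted p = 0.289). It rose in H1299, with a change of 0.47 at 8 h and 0.37 at 12 h (adjusted p = 1.23e-05 and 0.000155). In H460 the 24 h change was -0.29 (adjusted p = 0.0407), the course was not called (adjusted p = 0.163), and the difference of courses was (adjusted p = 0.0411). The 24 h call ended in 5 of 13 other settings and that of the difference in 4 of 12, with the array width in the model among them (adjusted p = 0.18 and 0.0797). Of the 9 pyrimidine genes 2 were called as rises (20.5% of all genes) and 2 as falls (21.4%) in H460, and 2 (19.9%) and 3 (16.6%) in H1299. CTPS2 and the uridine kinase UCK2 were higher in H460 at 0 h, by 1.11 and 0.86 (adjusted p = 2.03e-09 and 1.28e-10). UPP1, which splits uridine, was higher there by 1.45, and UCK1 was lower at -0.61 (adjusted p = 4.64e-10 and 6.76e-07). UCK2 fell in both lines, by 0.29 at 24 h in H460 (adjusted p = 0.00535; with the array width in the model 0.0806) and by 0.29 at 12 h in H1299 (adjusted p = 0.000122). CMPK1 rose in H460 by 0.35 at 24 h (adjusted p = 0.00675). It correlated with array width at r = 0.93, and with the width in the model the change was 0.096 (adjusted p = 0.677) and its course was not called (adjusted p = 0.25).

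Of 12 genes of glutamine and ammonia use, 5 were called as rises in H460 (20.5% of all genes) and 8 in H1299 (19.9%), and 0 as falls (21.4% and 16.6%). With the array width in the model 2 of the 5 and 7 of the 8 were still called. ASNS, asparagine synthetase, rose at 24 h by 0.34 in H460 (adjusted p = 0.00986) and by 0.65 in H1299 (adjusted p = 1.36e-07). The H460 change was lost with the array width in the model (0.14, adjusted p = 0.559), under quantile normalization (0.21, adjusted p = 0.062) and with 0 h arrays 4 to 6 alone (0.28, adjusted p = 0.0825). NADSYN1, a glutamine-dependent NAD synthetase, rose in H460 by 0.90 ± 0.10 (adjusted p = 3.49e-07) against -0.03 ± 0.09 in H1299, and the courses differed (adjusted p = 4.69e-05). The amino acid carriers SLC7A5 and SLC1A5 rose in H1299 at 24 h by 0.42 and 0.38 (adjusted p = 3.24e-05 and 0.002), with -0.15 and -0.18 in H460. With the mean of all its entries the SLC1A5 rise was 0.18 (adjusted p = 0.142). GFPT1 rose in both lines, by 0.32 and 0.28 at 24 h (adjusted p = 0.046 and 0.0104). The H460 rise was lost in 7 of 13 other settings and was 0.098 with the array width in the model (adjusted p = 0.811), where its course was not called (adjusted p = 0.712); the H1299 rise was lost in 2. PPAT, which opens purine synthesis, rose in H1299 by 0.44 at 12 h (adjusted p = 9.02e-05). At 0 h the glutamine carrier SLC38A5 was higher in H460 by 4.79 (8.76 against 3.97, adjusted p = 2.23e-17), SLC1A5 by 1.07 and GFPT1 by 0.94, and GMPS was lower at -0.84.

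Arginine, the product of ASL, had 16 measured genes of use and transport, of which 0 were called as rises (20.5% of all genes) and 2 as falls (21.4%) in H460, and 4 (19.9%) and 4 (16.6%) in H1299. SLC7A2, an arginine carrier, was higher in H460 at 0 h by 3.40 (10.08 against 6.68, adjusted p = 5.43e-17) and rose in H1299 by 0.43 at 12 h (adjusted p = 0.000254). DDAH1 and DDAH2, which break down methylated arginines, were lower in H460, with differences of -1.62 and -1.75, and DDAH2 rose in H1299 by 0.53 at 24 h (adjusted p = 3.01e-05; with the mean of all its entries 0.30, adjusted p = 0.302). AGMAT, at 6.32 in H460 and 5.47 in H1299, fell in H1299 by 0.55 at 12 h (adjusted p = 0.00145; with the array width in the model -0.30, adjusted p = 0.0905). GATM was lower in H460 (-0.95). The nitric oxide synthase NOS2 fell in H460 by 0.60 ± 0.13 at 24 h (adjusted p = 0.000888), a gene that correlated with array width at r = -0.93, and with the width in the model the change was -0.29 (adjusted p = 0.266) and its course had an adjusted p of 0.24.

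Ornithine, the product of arginase, feeds polyamines. Of 13 polyamine genes 4 were called as rises (20.5% of all genes) and 3 as falls (21.4%) in H460, and 3 (19.9%) and 6 (16.6%) in H1299, and the difference of courses was called for 5 (16.7%). SAT1, which acetylates spermidine and spermine, rose in H460 by 0.87 ± 0.11 at 24 h (adjusted p = 1.47e-06) and fell in H1299 by 0.36 ± 0.08 (adjusted p = 0.00355), and the courses differed (adjusted p = 5.76e-10; with the array width in the model 1.44e-07). The spermine oxidase SMOX rose in both lines at 24 h, by 0.83 and 0.35 (adjusted p = 2.96e-07 and 0.00298). ODC1, which makes putrescine from ornithine, fell at 24 h by 0.28 in H460 and by 0.31 in H1299 (adjusted p = 0.00891 and 0.000141). OAZ1, the antizyme that inhibits ODC1, fell in H1299 by 0.35 at 12 h (adjusted p = 6.13e-05). SAT2 rose in H460 by 0.57 at 24 h (adjusted p = 0.000605). At 0 h SMOX and SAT2 were higher in H460, by 1.12 and 0.64, while AZIN2 and SMS were lower (-0.61 and -0.53). Of 5 proline genes PYCR1 rose in both lines at 24 h, by 0.33 and 0.52 (adjusted p = 0.0218 and 0.00022). The H460 rise was lost with the array width in the model (0.23, adjusted p = 0.401; course 0.082), under quantile normalization (0.21, adjusted p = 0.162) and with 0 h arrays 4 to 6 alone (0.22, adjusted p = 0.211). PRODH was called as a fall in H460 (adjusted p = 0.0449), a call lost in 6 of 12 other settings (with the array width in the model, adjusted p = 0.524). ALDH18A1 was higher in H460 at 0 h by 0.73 while ALDH4A1 was lower (-0.84), and PYCR3 had no called course.

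Of 10 measured regulators of urea cycle genes, 4 were called as rises (20.5% of all genes) and 2 as falls (21.4%) in H460, and 3 (19.9%) and 3 (16.6%) in H1299. PPARGC1A, a coactivator of liver fasting genes, rose in H460 by 1.13 ± 0.13 at 24 h (adjusted p = 6.41e-07) against 0.12 ± 0.11 in H1299. CEBPB rose in H460 by 0.85 at 12 h and 0.80 at 24 h (adjusted p = 1.39e-06 at 24 h), and in H1299 by 0.40 at 24 h (adjusted p = 0.0186; 0.33 with 0 h arrays 1 to 3 alone and with the replicate block, adjusted p = 0.0803 and 0.0786). The courses of both genes differed between the lines (adjusted p = 9.99e-06 and 1.46e-07) and were still called in H460 with the array width in the model. ATF4 rose in H460 by 0.35 at 24 h (adjusted p = 0.00262) and fell in H1299 by 0.41 at 12 h (adjusted p = 5.08e-05). The ATF4 rise was -0.031 with the mean of all its entries (adjusted p = 0.857) and 0.24 with the array width in the model (adjusted p = 0.198). HIF1A and NR3C1 rose in H1299 at 12 h by 0.53 and 0.38 (adjusted p = 2.53e-06 and 0.000121). At 0 h FOXA1, a pioneer factor of liver and lung, was higher in H460 by 3.01 (8.89 against 5.88, adjusted p = 2.18e-15), and HIF1A, CEBPB and PPARGC1A by 0.91, 0.86 and 0.66. STK11 was at 7.45 in H460 and 7.81 in H1299 (adjusted p = 0.00188) with overlapping arrays, and its course was not called in either line (adjusted p = 0.186 and 0.38). A transcript level says nothing of the protein, and mutations of STK11 were not measured here.

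The cells were checked against markers of other cell types. Of 12 hepatocyte markers 11 were measured, with 0 h means of 2.75 to 5.66 in H460 and 2.73 to 6.92 in H1299; ALB was at 2.75 in H460, and the highest in H1299 was SERPINA1. At 24 h in H460 0 of the 11 rose and 1 fell (limma, adjusted p under 0.05; 28.7% of all genes were called in either direction), and of 6 enterocyte markers 0 rose and 3 fell. Among 5 leukocyte markers CD14 rose by 0.59 from 5.93 at 0 h (adjusted p = 0.00208). Among 6 fibroblast markers LUM rose by 1.18 from a low 3.48 at 0 h (adjusted p = 4.67e-05). COL1A2 fell by 0.53 from 5.31 (adjusted p = 0.00556). The part of these genes in the members' changes was not tested. The marker changes of this paragraph were not examined with the array width in the model or under the other settings. The epithelial keratins KRT8 and KRT18 were at 12.18 and 12.18 in H460 and at 10.81 and 12.12 in H1299. KRT19 and KRT7 were higher in H460, at 11.36 and 6.73 against 5.23 and 5.46 in H1299. KRT19 also rose in H460 at 24 h, by 0.52 (limma, adjusted p = 0.000584). EPCAM and CDH1, which define many epithelia, were low at 3.97 and 3.78 in H460 and at 3.67 and 3.71 in H1299. The mesenchymal markers VIM, CDH2, FN1 and ZEB1 were at 11.25, 5.18, 12.03 and 5.58 in H460. In H1299 they were at 11.94, 8.97, 7.26 and 6.85. Of these 4, FN1 rose in H460 at 24 h by 0.46 (limma, adjusted p = 7.53e-05), and the others had no called change then. PTPRC, the pan-leukocyte marker, was at 2.68 and 2.66.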

How the data were processed

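The values are log2 intensities of one-colour Affymetrix whole-transcript arrays, deposited by the authors as 1 table of 32321 rows and 42 arrays. The background correction and normalization behind these deposited log2 values are not given in the sources used here. Per the labels' protocols, targets were prepared from 100 ng of total RNA. Rows with 1 gene symbol (19158) were matched to RefSeq genes (19128 matched), 1388 rows with several symbols and 11775 rows outside the probe table were not used, and the row with the highest mean was kept, which left 18404 genes. No 2 arrays were identical, and no gene was filtered out.

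Tests used limma 3.58.1 in R 4.3.3 with a trended variance prior: quadratic regression on hours per line, as the series' design text names, its interaction with the line over 42 arrays, contrasts of each time against 0 h, the difference of those changes between lines, and the 0 h difference over 12 arrays. P-values were adjusted by Benjamini-Hochberg over all 18404 genes, and adjusted p under 0.05 was called. Errors are standard errors of the fit unless marked SD. The scripts were tested on simulated data. The members, gene lists and tests were chosen with earlier results of these data known. Pathway genes were named by a rule: up to 4 per list with the smallest p in a course and up to 4 with the largest called 0 h difference without overlap, plus STK11, CAD and ARG1. The marker genes LUM, CD14, COL1A2, SERPINA1, KRT19, KRT7, VIM, CDH2, FN1 and ZEB1 were named after their values were seen. The number of arrays limits the precision. Alternatives changed the dim-gene filter, row choice, variance prior, normalization, array weights, array width, 0 h arrays, time scale, replicate block and each array in turn.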

Additional observations from a re-analysis of the deposited data

Results flagged for a closer look

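The results below differed between the lines by a test of the difference itself in limma. The time courses over 24 h differed for CPS1 (adjusted p = 0.00211), ASS1 (adjusted p = 0.000678) and ARG2 (adjusted p = 0.00356). The change from 0 h was larger in H460 than in H1299 by 0.77 (log2) at 12 h and by 0.77 at 24 h for CPS1. For ASS1 the differences were 0.78 at 8 h, 0.73 at 12 h and 0.70 at 24 h, and for ARG2 they were 0.84 at 8 h and 0.62 at 12 h. NAGS differed by 0.42 at 2 h. Of 16 groups of 6 arrays (8 genes in 2 lines at 0 h), 0 held an array set apart from the rest by Dixon's criterion, where chance would give about 1 in 20.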

How the results depend on the processing

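Counts are of the 8 genes, or of gene and time pairs, called by limma at an adjusted p under 0.05. The 3 H460 courses became 5 under quantile normalization, 5 with array weights, 5 without the 4 narrow arrays, 5 with all 42 arrays in 1 fit and 6 with 1 mean per time point, and were 2 to 4 with 1 array left out. The 2 H1299 courses became 4 with 1 mean per time point. With array width in the model, the 3 differences of courses became 1 and the 10 H460 changes became 3. The 8 differences of changes became 2, of which only ARG2 at 8 h was among the 8 (0.79, adjusted p = 0.0381). The other, ARG2 at 4 h, was newly called (0.57, adjusted p = 0.0267, against 0.52 and 0.0668 without the width). Over all genes, the share with a called difference of courses was 16.7% without the width and 14.3% with it. For the other counts of this paragraph, the share over all genes under each setting was not computed. The ASS1 changes in H460 fell with the width in the model to 0.099 at 12 h and 0.25 at 24 h. Width also turned the sign of the ASS1 change at 8 h in H460 (-0.025), of SLC25A15 at 2 h in H460 (0.038) and of the NAGS difference at 2 h (-0.032); the cause was not tested. With 0 h arrays 4 to 6 alone, the H460 changes were 6 and the differences of changes 4. The 6 H1299 changes became 10 with array weights and 3 with 0 h arrays 1 to 3, with all 42 arrays in 1 fit and with the replicate block, and ran from 2 to 8 with 1 array left out; the differences of changes ran from 5 to 9. Same-numbered arrays had a median correlation of deviations of -0.021 in H460 and -0.057 in H1299, so the numbers were not taken to pair samples; with the replicate block the H460 courses numbered 2, the H1299 courses 2 and the H460 changes 7. Of the other values under 15 alternatives, 1759 stayed on their side of the threshold (or, untested, within the spread), 55 gained a call, 60 lost one, 4 untested values moved and 3 called values turned sign. Of those 1759, 1438 carry a sign, and 89 of these, none called, turned it, 23 of them with array width in the model. Low levels such as OTC and CPS1 in H1299 are limited by the missing background measure.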

Other observations

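GLUL had a second entry with a mean of 7.31 over all 42 arrays, against 8.28 for the one described. With the mean of both entries, the H460 time course of GLUL had an adjusted p of 0.0268 (limma), and the change at 4 h in H1299 was -0.18 with an adjusted p of 0.0989, against -0.24 and 0.0227 for the single entry.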
